A study of Mus musculus with 2 samples.

Results

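Sox5, Sox6 and Sox9, the trio of transcription factor genes that directs cartilage formation, were examined in a list of genomic regions where the MBD2 protein captured more DNA from Control than from Uhrf1 conditional knockout (cKO) chondrocytes. The regions were those that overlapped the annotated span of Sox5 or Sox6 widened by 20 kb, or lay within 1 Mb of Sox9, and 79 of the 35861 listed regions met this rule. Of these, 21 lay at Sox5, 1 at Sox6 and 57 around Sox9. Both genotypes were primary chondrocytes, freed with Collagenase D from the knee cartilage of mice on a C57BL/6 strain background at post natal day 3, and once confluent both were given 24 hours of rhBMP-2 at 100 ng/ml, a bone morphogenetic protein that promotes chondrocyte differentiation. Control and Uhrf1 cKO were represented by 1 library each, so no difference has a replicate check and no p-value was computed. The sources used here do not name the Cre line, the Uhrf1 allele or the number of mice behind each library. The list holds no expression values, so neither the chondrocyte label nor the loss of Uhrf1 was checked against gene expression. A loss of methylation in every cell and a loss in some of the cells cannot be told apart in DNA pooled from a culture.

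SOX9 is the master regulator of chondrocytes and activates genes of the cartilage matrix such as Col2a1 and Acan. SOX5 and SOX6 are SoxD proteins that lack a transactivation domain of their own, bind DNA as dimers and strengthen the binding of SOX9 to cartilage enhancers. Sox9 is a short gene within a gene desert that holds many long-range enhancers, whereas Sox5 and Sox6 are long genes that themselves contain regulatory elements. UHRF1 recognises hemimethylated CpG sites after DNA replication and recruits the maintenance methyltransferase DNMT1. MBD2 binds methylated CpG, so a listed region marks DNA that the authors' caller scored as captured more from Control than from cKO cells. Each such call rests on 1 library per genotype. A stretch without a listed region may be unmethylated in both genotypes, methylated alike in both, or poorly captured. The list cannot tell these apart, so a missing region is not read here as a lack of methylation.

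The start sites of Sox5 and Sox6 that could be examined were free of listed regions, as were nearly all promoter windows. The RefSeq table of promoter windows (GRCm38.p6, 250 bases before to 50 after a start) held 1 window for Sox5 and 6 for Sox6, and 0 of the 7 overlapped a listed region, against 1.2% of all 32851 windows. None of the 7 had a region within 1 kb, against 4.63% of all windows. The Sox5 window, both outermost windows of Sox6 and an internal Sox6 window poor in CpG are shown, because capture depends on CpG, which is printed in capitals (the letters CG, which read the same on both strands).
Sox5, chr6:143947057-143947356, minus strand: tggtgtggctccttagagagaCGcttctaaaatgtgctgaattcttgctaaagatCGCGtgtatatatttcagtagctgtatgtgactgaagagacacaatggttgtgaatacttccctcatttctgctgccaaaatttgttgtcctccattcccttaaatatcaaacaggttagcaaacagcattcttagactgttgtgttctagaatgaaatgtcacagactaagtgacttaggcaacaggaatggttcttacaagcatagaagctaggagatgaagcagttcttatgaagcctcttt
Sox6, outermost start, chr7:116038695-116038994, minus strand: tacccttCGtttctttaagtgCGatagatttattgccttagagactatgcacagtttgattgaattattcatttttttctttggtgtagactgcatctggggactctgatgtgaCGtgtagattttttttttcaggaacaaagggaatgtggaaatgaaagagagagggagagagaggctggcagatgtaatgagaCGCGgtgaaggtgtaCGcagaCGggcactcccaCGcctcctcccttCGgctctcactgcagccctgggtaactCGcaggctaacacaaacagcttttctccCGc
Sox6, next start, chr7:116030998-116031297, minus strand: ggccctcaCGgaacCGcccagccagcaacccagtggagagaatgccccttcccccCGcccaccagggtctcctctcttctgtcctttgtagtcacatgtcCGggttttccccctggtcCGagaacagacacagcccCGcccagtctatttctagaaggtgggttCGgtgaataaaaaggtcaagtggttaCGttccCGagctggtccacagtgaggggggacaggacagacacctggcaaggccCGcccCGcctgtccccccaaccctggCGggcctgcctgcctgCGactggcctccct
Sox6, internal start, chr7:115995037-115995336, minus strand: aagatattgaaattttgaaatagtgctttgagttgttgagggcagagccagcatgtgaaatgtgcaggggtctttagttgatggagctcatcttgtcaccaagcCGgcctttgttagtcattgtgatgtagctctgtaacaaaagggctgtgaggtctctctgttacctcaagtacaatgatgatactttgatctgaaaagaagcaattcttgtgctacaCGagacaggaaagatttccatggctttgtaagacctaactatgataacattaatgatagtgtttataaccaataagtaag
The Sox5 window lies inside the annotated span, toward its 3′ end, so starts at the 5′ end of Sox5 were not examined. It contained 3 CpG, and 76.7% of all windows contained at least as many. The outermost Sox6 windows contained 11 and 13 CpG (41.4% and 37.9% of all windows had at least as many), and the internal one contained 2 (85.9%). Listed regions overlapped 0.616% of windows with 0 to 4 CpG, 3.06% of those with 5 to 9, 1.85% of those with 10 to 19 and 0.31% of those with 20 or more. The nearest listed region to the Sox5 window lay 2687 bp away, on the gene's 3′ side of the start. The nearest ones to the outermost Sox6 windows lay 27.4 and 35.1 kb away, and the other 4 Sox6 windows were 48.3 to 144.7 kb from the only Sox6 region.

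Each region has a count of Control tags (reads kept after duplicate removal), a fold over the local background at the region's summit and a false discovery rate (FDR) in percent, all from the authors' deposited table. The score in that table is a Poisson probability of the Control tags given a background taken from the cKO library, so the background could be calculated back from it. For 30541 of the 35861 regions (85.2%) this background was a whole number of cKO tags within the region, to within 0.02 of a tag, and the summit height also came out whole. These numbers are given as cKO tags. For a further 1802 regions (5.02%) the background was the genome-wide average, which caps the cKO tags at a small number that is given as an upper limit. Of the 79 regions described here, 7 were of this kind. The Control library had 9782276 kept tags (44.8% of its total) and the cKO library 15039206 (76.1%), so cKO tags were multiplied by 0.65 for comparison. Intervals are 95% exact counting intervals and cover counting error only. The list holds only regions with more Control signal, so their direction is set by the list.

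Sox5 carried listed regions along its whole length and just beyond its 5′ end. The gene spans 953.9 kb on chromosome 6 (143828425 to 144782287, mm10, minus strand), and 20 regions lay within the span and 1 outside it. The 21 regions covered 1.01% of the widened span, at 21.1 regions per Mb (13.1 to 32.3), against 11.4 for chromosome 6 and 13.3 for the list as a whole. Neighbouring regions were a median of 36.1 kb apart (range 2.17 to 158.3), against a median of 27.6 kb for all neighbouring regions of the list. The widest free stretch, from 144544037 to 144702323, lay toward the 5′ end, and 12.1% of all such stretches in the list were longer. The region on its 3′ side (144543756 to 144544037) held 23 Control and at most 4 cKO tags with an FDR of 100%, and the one on its 5′ side (144702323 to 144702764) held 148 and 46.

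**Figure D1:**
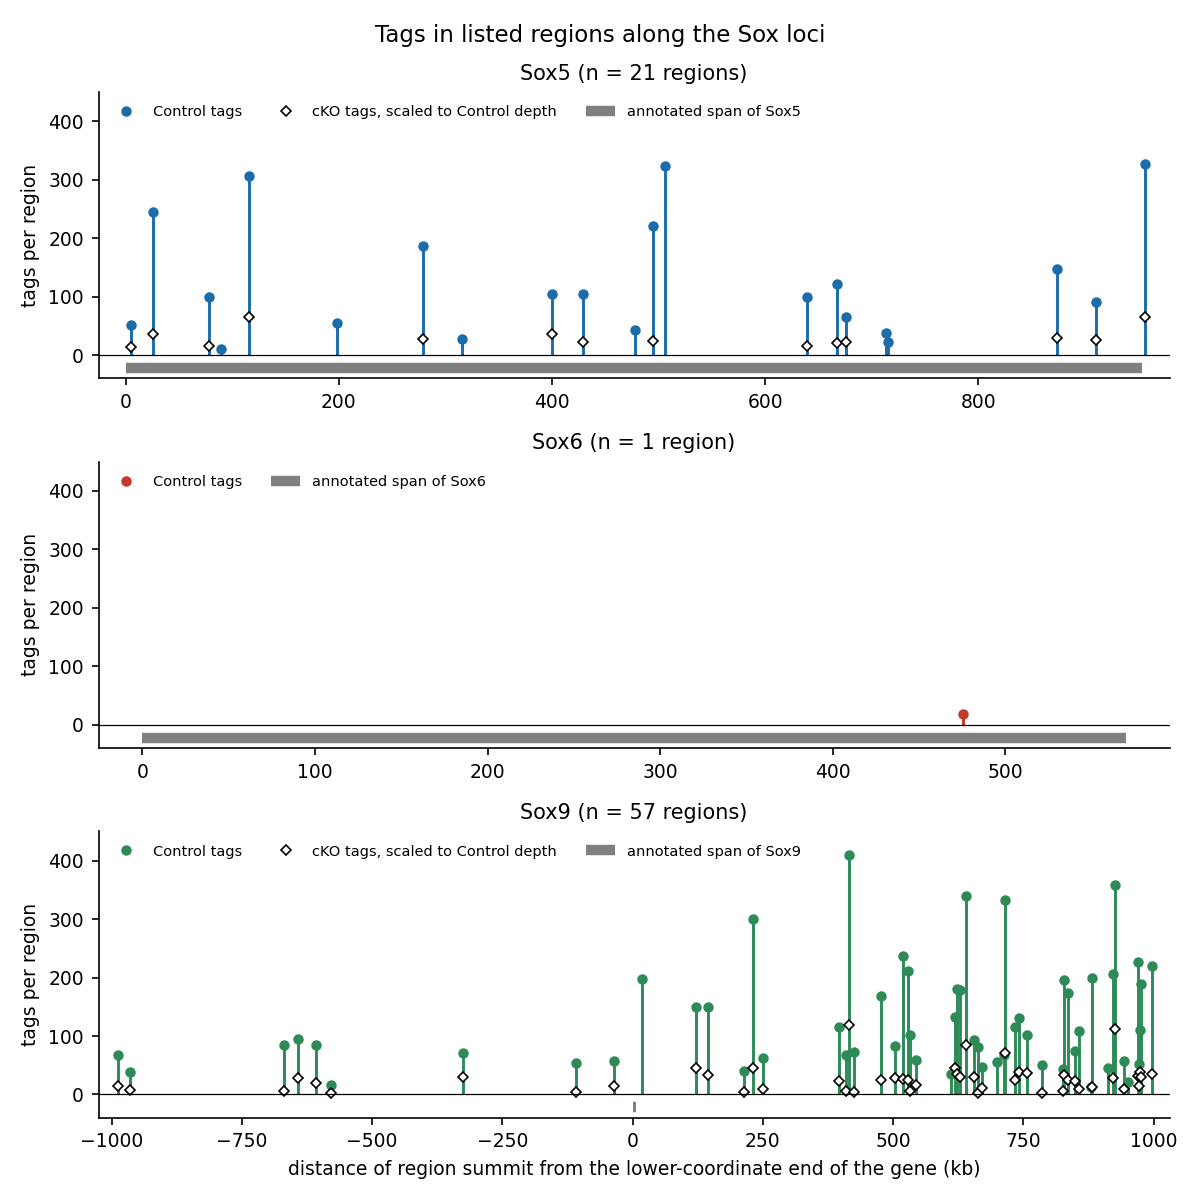
Control tags (filled points on stems) and cKO tags scaled to Control depth (open diamonds, where they could be recovered) in each listed region, by distance of its summit from the lower-coordinate end of the gene in kb; the grey bar is the annotated span. Regions lie along the whole of Sox5, Sox6 has 1 region of 18 tags, and around Sox9 there are 9 regions on the lower and 48 on the higher side.

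The region with the most Control tags at Sox5 was the one outside the gene. It lay 1576 bp beyond the 5′ end of the span (144783864 to 144784829) and was also the longest of the 21, at 966 bp. It held 326 Control tags and 101 cKO tags, a ratio of 4.96 after scaling (3.96 to 6.27). Within the gene, the region at 144334053 to 144334625 held 323 Control tags (12.58-fold at its summit), but its cKO tags could not be recovered. The region nearest to the promoter window shown above, at 143943661 to 143944369, held 306 Control tags and 100 cKO tags (ratio 4.7, 3.74 to 5.96). The region at 143854136 to 143854744, near the 3′ end, held 244 Control tags and 54 cKO tags (ratio 6.95, 5.15 to 9.51). These high-tag regions were thus spread from the 3′ to the 5′ side of the gene, and each kept cKO tags where these could be counted. The region closest to the 3′ end, 4.62 kb inside it, was thinner, with 51 Control and 20 cKO tags and an FDR of 84.59%.

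The largest folds at Sox5 belonged to regions with few tags. The largest, 49.44, was at 144541309 to 144541583, which held 37 Control tags and at most 2 cKO tags. A fold of 39.55 was listed both for a region of 28 Control tags (144143544 to 144143850, at most 2 cKO tags) and for one of 42 (144306305 to 144306733, at most 3 cKO tags). All these were among the 4 Sox5 regions whose background was the genome-wide one, and the remaining one held 11 Control tags and had an FDR of 100%. With that background each tag at the summit is worth 3.3 units of fold, and both regions at 39.55 had a summit height of 12 tags. Such folds are therefore set by the summit height alone. Among the 14 Sox5 regions with a cKO tag number, whose extremes were picked out after their values were seen, the ratio ran from 2.96 (144227792 to 144228214, with 104 Control and 54 cKO tags) to 9.18 (144322396 to 144322946, with 221 and 37). Of the 21 regions, 14 had an FDR of at most 5% (66.7%, against 56.9% of the whole list). An FDR of 100% was listed for 3 of the 21, and one of 100% or more for 5816 of the 35861 in the list.

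Sox5 held more regions than most genes of its size. Among 70 other protein-coding genes whose span was within 20% of that of Sox5, the widened span held a median of 4.5 regions (range 0 to 57), and 3 genes had more than the 21 of Sox5. In regions per Mb these genes had a median of 4.65 (interquartile range 2.43 to 8.84). The genes of this size closest to Sox5 in regions per Mb were Dlgap1, which encodes a postsynaptic scaffold protein (20.2 per Mb), Auts2 (19.2 per Mb) and Camta1, which encodes a calmodulin-binding transcription activator (26.1 per Mb). The surroundings of Sox5 were dense as well. Within 1 Mb there were 31 regions below and 24 above the span, against an average of 11.4 per Mb on chromosome 6. With the 20 in the span the count was 75, and 90.3% of all protein-coding genes had fewer (median 35). This count includes the gene itself, so Sox5 had a wider window than shorter genes, and the rank does not compare equal windows.

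**Figure D2:**
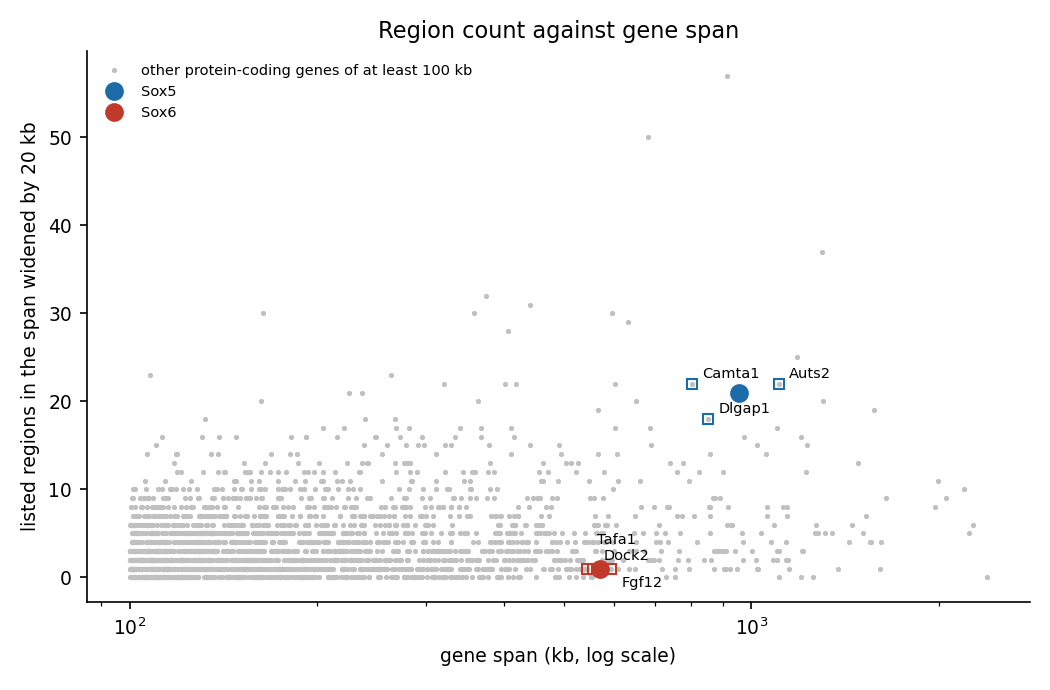
Number of listed regions in the span widened by 20 kb (vertical axis) against gene span in kb (log scale) for protein-coding genes of at least 100 kb (grey). Sox5 (blue) stands at 21 regions and Sox6 (red) at 1, and open squares mark the 3 genes of similar span closest to each in regions per Mb.

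Sox6, the partner of Sox5, held 1 thin region in 569.9 kb. The gene lies on chromosome 7 (115470872 to 116040776, minus strand), and its region was at 115946515 to 115946751, 94 kb inside the 5′ end. It held 18 Control tags and at most 1 cKO tag, with a summit height of 8 tags, a fold of 26.37 and an FDR of 82.79%. The same fold was listed for the Sox5 region of 11 tags, which had the same summit height and background. On the 3′ side the region-free stretch ran for 563.8 kb, from 115382754 to 115946515, and only 1.63% of the stretches between neighbouring regions of the list were longer. The Sox6 density of 1.64 regions per Mb (0.0415 to 9.14) compares with 12.7 for chromosome 7. Of all 21887 protein-coding genes, 65.4% had a region in the span widened by 20 kb, and both Sox5 and Sox6 were among them.

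Among 143 other genes within 20% of the span of Sox6, the median was 4 regions (range 0 to 50). Of these, 116 had more than the 1 region of Sox6 and 8 had none. The genes of this size closest to Sox6 in regions per Mb were Dock2, an activator of Rac in blood cells, Fgf12 and Tafa1, each with 1 region. Regions appeared again on both flanks of Sox6. On the 5′ side, 3 regions lay 25.7 to 43.3 kb beyond the gene, with 73, 291 and 177 Control tags, and the one with 291 (116073590 to 116074164) had 76 cKO tags and an FDR of 0%. On the 3′ side the nearest region was 88.1 kb away, with 98 Control and 58 cKO tags. Within 1 Mb of Sox6 there were 21 regions, 4 on the 3′ side, 1 in the gene and 16 on the 5′ side. Of all protein-coding genes, 26.9% had fewer, although the window again includes the gene and so was wider than that of shorter genes.

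The Sox9 gene itself held no listed region, which does not show whether it was methylated, and the regions around it were distributed unevenly. Sox9 spans 5.55 kb on chromosome 11 (112782210 to 112787757). Of the 57 regions within 1 Mb, 9 lay on the lower-coordinate side and 48 on the higher side. Among 16163 protein-coding genes with 20 or more regions within 1 Mb, 5.59% had sides that differed by at least the same factor of 5.33, in either direction, and neighbouring genes share most of these regions. No protein-coding gene lay within 1 Mb on the lower side, whereas 8 lay at least partly on the higher side, the nearest being Slc39a11, a zinc transporter gene. Having a region within 1 Mb was common to 99.5% of protein-coding genes, and the number at Sox9, 57, was above that of 77.1% of them.

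**Figure D3:**
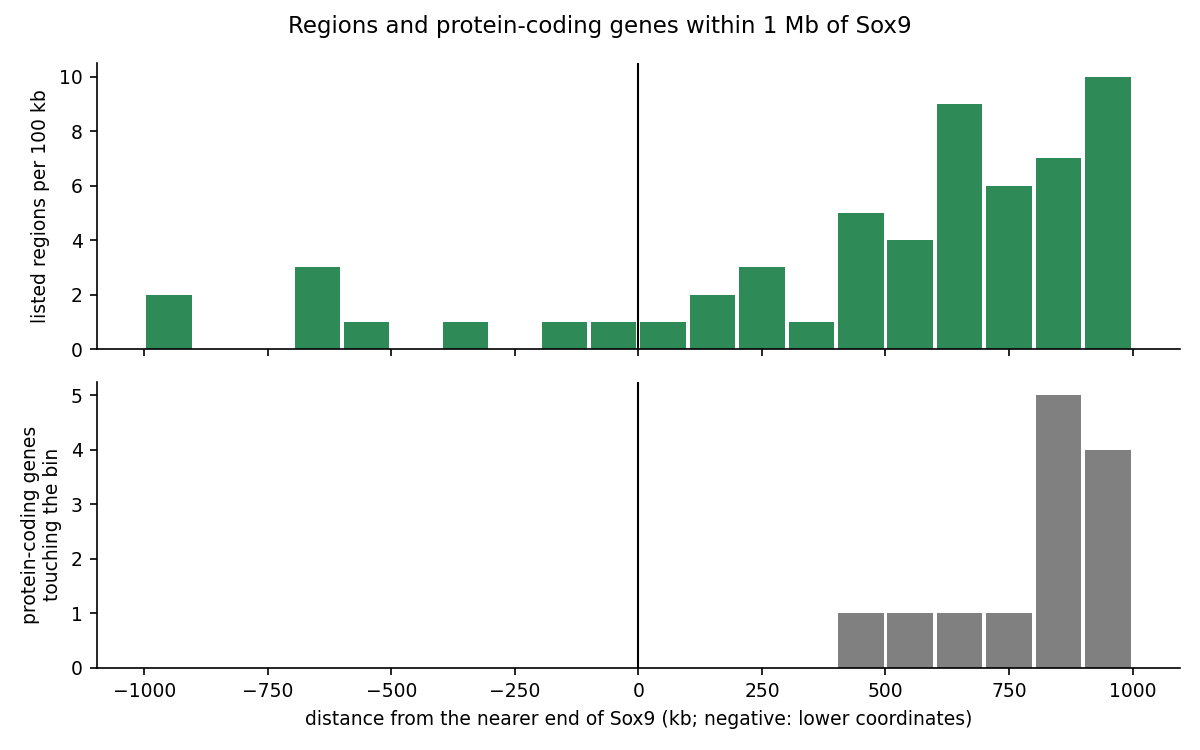
Listed regions (upper panel) and protein-coding genes (lower panel) per 100 kb, by distance in kb from the nearer end of Sox9; negative distances are lower coordinates. No bin on the lower side holds more than 3 regions, whereas the bins from 400 to 1000 kb on the higher side, which are the ones with protein-coding genes, hold 4 to 10.

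The regions next to Sox9 left 53.5 kb free around the gene. The nearest one below it, 35.8 kb away (112746045 to 112746459), held 58 Control and 23 cKO tags (ratio 3.88, 2.35 to 6.59) and had an FDR of 61.96%. The nearest one above it, 12.2 kb away (112799961 to 112800490), held 198 Control tags at 10.1-fold with an FDR of 0%, and its cKO tags could not be recovered. The higher-coordinate neighbour thus had more Control tags, and of the neighbours only this one had an FDR of at most 5%. Among all stretches between neighbouring regions of the list, 33% were longer than 53.5 kb.

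On the lower side, regions were fewer and thinner than on the higher side. The 9 regions of that side amounted to 9 per Mb (4.12 to 17.1) and had a median of 67 Control tags (17 to 95). Of these, 2 had an FDR of at most 5% (22.2%, against 56.9% of the whole list). The first of them, at 112112408 to 112112846 and 669.4 kb from Sox9, held 85 Control and 10 cKO tags (ratio 13.1, 6.77 to 28.2). The other, at 112673350 to 112673747 and 108.5 kb from Sox9, overlapped the noncoding gene BC006965 and held 53 Control and 6 cKO tags (ratio 13.6, 5.84 to 38.7). The region 325.4 kb from Sox9 (112456387 to 112456804) held 71 Control and 46 cKO tags, the lowest ratio of the 50 Sox9 regions with a cKO tag number, at 2.37 (1.61 to 3.52). The widest free stretch of the Sox9 surroundings, 295.7 kb, also lay on this side, from 111816661 to 112112408, and 5.12% of all stretches were longer. The region on its far side (111816236 to 111816661), in the noncoding gene Gm30337, held 39 Control and 11 cKO tags.

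On the higher side, the density was greater in and beyond Slc39a11 than next to Sox9. Between Sox9 and Slc39a11, over 457.1 kb without a protein-coding gene (the coding-free stretch), there were 10 regions, or 21.9 per Mb (10.5 to 40.2). Within Slc39a11 itself there were 26 in 405.4 kb, or 64.1 per Mb (41.9 to 94), and the remaining 137.6 kb held 12, or 87.2 per Mb (45.1 to 152.4). These intervals treat regions of 1 pair of libraries as independent counts, so whether they overlap was not read as a test of the densities. Summed over regions with a cKO tag number, the ratio was 4.52 (3.83 to 5.34) below Sox9, 4.75 (4.27 to 5.3) in the coding-free stretch above it, 5.1 (4.74 to 5.48) in Slc39a11 and 5.19 (4.68 to 5.76) beyond, so the sides differed in regions and tags but overlapped in this ratio. Both stretches without coding genes that border Sox9 were denser than most. Across 883 stretches of at least 400 kb without a protein-coding gene, the median was 4.77 regions per Mb (interquartile range 2.83 to 8.21). The stretch below Sox9 (8.52 per Mb) exceeded 76.4% of them and the stretch above it exceeded 96.3%. In the latter, 9 of the 10 regions had an FDR of at most 5%, against 56.9% of the whole list.

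The regions with the most tags in the Sox9 surroundings lay on the higher side. The 48 regions there had a median of 113 Control tags (12 to 410), against 67 (17 to 95) for the 9 on the lower side and 103 in the list as a whole. The region with 410 Control tags, at 113197455 to 113198162, lay 409.7 kb from Sox9 in the long noncoding RNA gene 2610035D17Rik. It kept 182 cKO tags, so its ratio was low at 3.46 (2.9 to 4.15). Another 2 regions overlapped 2610035D17Rik, and the one at 113190806 to 113191236 contrasted with it, with 68 Control and 9 cKO tags (ratio 11.6, 5.77 to 26.5). The region at 113011919 to 113012523, in the coding-free stretch 224.2 kb from Sox9, held 300 Control and 70 cKO tags (ratio 6.59, 5.06 to 8.67).

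In Slc39a11, the ratio of the 23 regions with a cKO tag number ran from 2.75 to 25.6. The regions with the most Control tags there, at 113422514 to 113423219 and at 113496331 to 113496980, held 340 and 332, with 129 and 109 cKO tags. The region at 113444532 to 113444946 held 81 Control and 5 cKO tags (ratio 24.9, 10.2 to 78.8) and had the largest fold around Sox9, 59.4. The region at 113567765 to 113568058 held 50 and 3 (ratio 25.6, 8.28 to 128.4). The region at 113539495 to 113539892 held 102 Control and 57 cKO tags (ratio 2.75, 1.97 to 3.87). It was picked out as the lowest ratio of the gene after its value was seen. Beyond Slc39a11, a fold of 59.33 was listed for the region at 113694288 to 113694603 in D11Wsu47e, which held 45 Control and at most 2 cKO tags. The region at 113662670 to 113663235, in Cog1, a subunit gene of a Golgi tethering complex, and in its neighbour Fam104a, held 200 Control and 19 cKO tags (ratio 16.2, 10.1 to 27.4). Cpsf4l held 2 regions, of which the one at 113707314 to 113708027 had 359 Control and 171 cKO tags (ratio 3.23, 2.68 to 3.9). Cdc42ep4 and Sdk2, a cell adhesion gene, overlapped 1 region each, and Sstr2, a somatostatin receptor gene within the span of Slc39a11, overlapped none. By nearest gene, 8 of the 57 regions belonged to Sox9 and 31 to Slc39a11.

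On the higher side of Sox9, neighbouring regions were a median of 12.5 kb apart, closer than the median of 36.1 kb at Sox5, whereas on the lower side the median was 52.8 kb. Over both sides neighbours were a median of 14.9 kb apart (range 0.306 to 295.7), against 27.6 kb for all neighbouring regions of the list. The lower quartile of these distances was 6.92 kb around Sox9, 19.4 kb at Sox5 and 9.21 kb in the list. The closest pair lay beside Cdc42ep4, a gene for an effector of the GTPase CDC42. There, the region at 113752827 to 113753374 held 227 Control and 49 cKO tags (ratio 7.12, 5.21 to 9.91), and its neighbour at 113753681 to 113754124 held 52 and 22 (ratio 3.63, 2.17 to 6.28). Within 500 kb of Sox9 there were 15 regions, 3 below and 12 above. Chromosome 11 averaged 19.2 regions per Mb, and the 2 Mb around Sox9 had 28.4 (21.5 to 36.8).

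In tags and folds, the regions at Sox5 and around Sox9 resembled the list as a whole. The median was 99 Control tags at Sox5 (interquartile range 51 to 186), 95 around Sox9 (58 to 180) and 103 in the list (59 to 175). The median fold was 13.12 at Sox5, 11.6 around Sox9 and 12.18 in the list. An FDR of at most 5% was listed for 34 of the 57 Sox9 regions (59.6%), close to the share of the list. Summed over the 14 Sox5 regions with a cKO tag number, there were 2166 Control and 638 cKO tags, a ratio of 5.22 (4.78 to 5.71). The 50 such regions around Sox9 summed to 6795 Control and 2093 cKO tags, a ratio of 4.99 (4.75 to 5.24), and the whole list gave 4.77. These ratios depend on how the libraries are scaled. With total tags in place of kept tags, they were 3.07 at Sox5, 2.94 around Sox9 and 2.81 in the list.

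**Figure D4:**
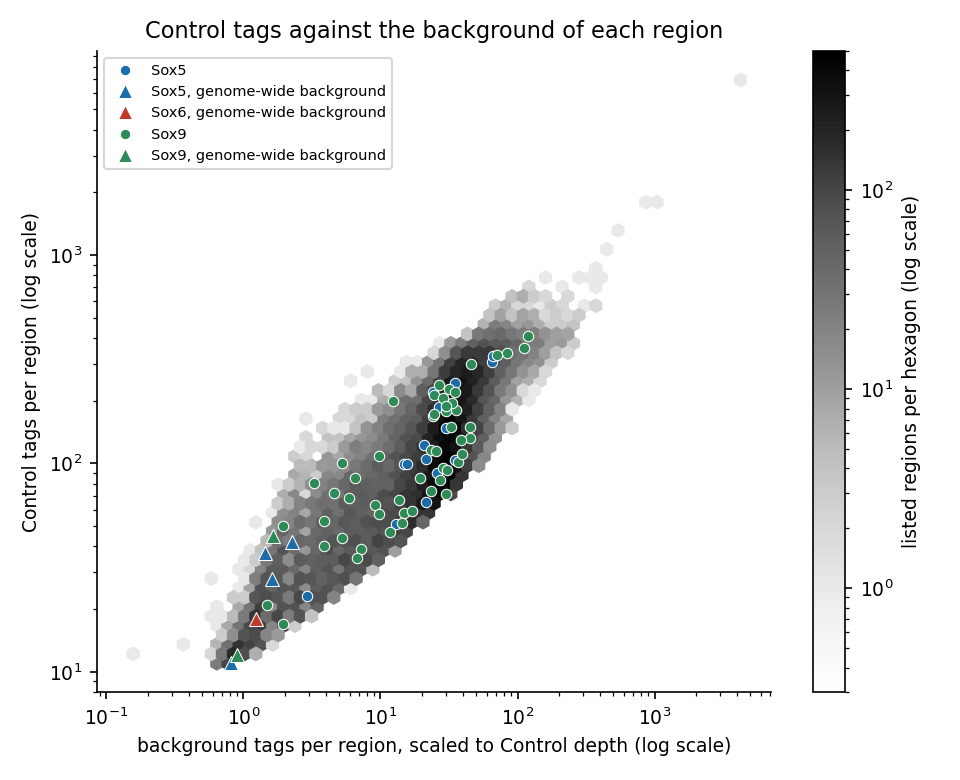
Control tags per region (vertical axis) against background tags per region scaled to Control depth (horizontal axis), both on log scales, for regions whose background could be recovered; grey hexagons are the whole list. Sox5 (blue), Sox6 (red) and Sox9 (green) regions lie within the cloud of the list, and triangles mark regions whose background was the genome-wide one, among them the Sox6 region with 18 Control tags.

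The genes that work with the trio carried regions about as often as other genes. Of 43 such genes, 30 had a region in the span widened by 20 kb (69.8%, against 65.4% of all protein-coding genes), with a median of 2 regions per gene against 1, and their median span was 24.5 kb against 17.2 kb. Within the spans alone, 15 of the 43 had a region, against 38.2% of all protein-coding genes, so the share was not above that of other genes. Among other SoxD and SoxE genes, Sox8 and Sox10 had regions and Sox13 had none. Each had 3 regions. The Sox8 region with the largest fold (chromosome 17, 25566011 to 25566527) lay within the gene and held 153 Control and 37 cKO tags. The Sox10 region with the largest fold, 22.31, lay 8213 bp outside the gene and held 182 Control and 34 cKO tags.

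Of 12 genes for co-factors and regulators of SOX9, 11 had a region in the widened span (91.7%, against 65.4% of all protein-coding genes) and 6 had one within the gene (against 38.2%). This sublist also had the longest genes, with a median span of 46.5 kb. Ep300, which encodes a histone acetyltransferase and coactivator, had the largest fold, 58.15, in a region within the gene with 81 Control and 5 cKO tags. Wwp2, which encodes a ubiquitin ligase, had 9 regions, and the one with the largest fold had 49 Control and at most 5 cKO tags (33.66-fold, FDR 0.53%). Ctnnb1, the gene for beta-catenin, had 2 regions, and the one with the larger fold (42.85) held 13 Control tags, 12.2 kb outside the gene, with an FDR of 48.99%. Arid5b, which encodes a DNA-binding co-regulator of SOX9, had 13 regions in the widened span, 12 of them within the gene, the most of the 43 genes.

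Of 16 cartilage targets, 10 had a region in the widened span (62.5%, against 65.4% of all protein-coding genes), and 3 had one within the gene (against 38.2%). Col2a1, which encodes the collagen of cartilage, had none in its span, and a region 1958 bp outside it (chromosome 15, 98006683 to 98007290) held 328 Control and 108 cKO tags. Acan, the gene for the proteoglycan aggrecan, held 1 region with 94 Control and 55 cKO tags and an FDR of 82.88%. Both were named here as the best-known targets after their values were seen. The largest folds among targets were at Snorc, a gene for a cartilage proteoglycan (55.17-fold, 51 Control and 4 cKO tags, 9356 bp outside the gene), Col9a1, a collagen gene (15.69-fold, 279 and 65 tags), and Matn4, a matrilin gene (14.93-fold, 202 and 45 tags), and these regions of Col9a1 and Matn4 lay 10593 and 7156 bp outside the genes. Comp, Cnmd, Ccn2, Matn1, Col9a2 and Col9a3 had no region in the widened span.

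Of 12 genes for upstream signals, 7 had a region in the widened span, a share of 58.3% that is close to the 65.4% of all protein-coding genes. Bmpr1a, a receptor gene for BMP ligands, had the largest fold, 18.56, in a region that overlapped the end of the gene and held 87 Control and 20 cKO tags. Prkaca, the gene for a catalytic subunit of protein kinase A, had 2 regions, and the one with the larger fold held 261 Control and 62 cKO tags (14.55-fold). Smad1, the gene for a transducer of BMP signals, held 4 regions, and its largest fold, 12.12, came from 28 Control and 7 cKO tags with an FDR of 100%. Bmp2, Pthlh, Ihh, Shh and Gli3 had no region in the widened span.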

How the data were processed

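MBD-seq of 1 Control and 1 Uhrf1 cKO library was used, in which MBD2 captured methylated DNA sheared to about 300 bp. Per the file headers, the authors called regions with MACS 1.4.2, with Control as the enriched and cKO as the background library. Its settings were a p limit of 1e-10 and at most 1 tag per position. The caller's fragment length d was 58 bp and the effective genome size 1870 Mb. Per the submitters' processing notes the build was mm10, and no aligner is named in the sources used here. The deposited values are counts of Control tags, a score from the authors' caller (the negative log10 of its Poisson p, multiplied by 10), a fold, which is the ratio of the Control summit to the cKO background as the authors' caller gave it, and an FDR in percent from the authors' caller. Positions and lengths are as deposited.

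The background of each region was solved from the score and the Control tags, and divided by the library ratio of 0.65 to give cKO tags. It was accepted where the summit height (fold times background, over 58 bp) came out whole, to within 0.02 of a tag or the rounding of the fold. This held for 34194 regions (95.4%). For 1851 of them the background was neither cKO tags of the region nor the genome-wide one, and the cKO number is an upper limit. This takes the caller to use the largest of its backgrounds, and 2 of the 34194 lay below the genome-wide one. In 1667 regions (4.65%) no cKO number was accepted, and the reason was not examined. The calculation was run on simulated data made with the same Poisson formula. Backgrounds there were only cKO tags of the region or the genome-wide average. That run checked the code and cannot show that the caller's own backgrounds were recovered.

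Genes came from RefSeq GRCm38.p6, which gives no exons, and all 43 listed genes were matched by symbol. The table has no strand, so 5′ and 3′ sides of Sox5 and Sox6 follow the promoter table, which held no Sox9 window. Region sequences were not analysed here. The members and lists were chosen with earlier results of these data known. Regions were named where they had the most tags, the largest folds, the nearest position to a gene end or bordered the widest gap, with some others, among them the extremes of the ratio, chosen after their values were seen, and listed genes by largest fold, up to 3 per sublist. No test was made, as there were no replicates. Counts have exact Poisson and ratios exact binomial (Clopper-Pearson) intervals. Alternatives were stricter p limits (1e-15, 1e-20), an FDR of at most 5%, other windows, summits, joined regions and another library scaling. The tools were SciPy 1.17.1, pandas 2.3.3, NumPy 2.4.6 and Matplotlib 3.10.9 under Python 3.11.15.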

Additional observations from a re-analysis of the deposited data

How the results depend on the processing

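Of 43 alternative values, 30 stayed close to those given (within 1.5 times for counts, within the 95% interval for medians and ratios). The 43 are not separate checks. Regions per Mb repeat the region counts under the same limits, and counting by summit left every region count unchanged. The Sox5 count of 14 at an FDR of at most 5% was taken as close, although it stood at the edge of the 1.5 limit. The Sox6 region was lost at a p of at most 1e-20 and at an FDR of at most 5%, which left 0 regions and 0 regions per Mb, and a span widened by 50 kb gave 4. With an FDR of at most 5%, the Sox9 surroundings kept 34 regions (16.95 per Mb) with a median of 170.5 Control tags. That limit kept 59.6% of the Sox9 regions, 56.3% of those on chromosome 11 and 56.9% of the list. The densities and medians given above for chromosome 11 and the list are unfiltered and do not compare with these filtered values. With 500 kb on both sides of Sox9 there were 15 regions, and with 2 Mb there were 107. The gene spans alone gave 15 of the 43 genes around the trio (against 38.2% of all protein-coding genes). Scaling by total tags, chosen after seeing the data, gave ratios of 3.07 at Sox5 and 2.94 around Sox9. At Sox5 the count ran from 14 to 21 over its alternatives. No paired analysis was possible because there was 1 library per genotype, and no library could be left out. Regions with few tags limit the precision of single ratios, and the unequal loss of duplicate tags between the libraries was not tested as a part of any result.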
